A study of Mus musculus with 43 samples.

Results

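The tumour necrosis factor (TNF) superfamily is the set of trimeric ligands, and the matching set of cell surface receptors, through which immune cells give each other costimulatory, survival and death signals. The genes described here are those whose symbol starts with Tnfsf (ligands) or Tnfrsf (receptors), apart from Tnfsf10. A gene entered when a probe set, the group of array probes that reads one transcript, was annotated to its symbol alone. By that rule 28 of the 19752 measured genes were members, 8 ligands and 20 receptors, and each was read by 1 probe set. A further probe set of the family carried several symbols, among them Tnfsf12 and Tnfsf13, and was left out.

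The levels came from 43 Affymetrix Mouse Gene 1.0 ST arrays. Each array read RNA of 1 sorted immune cell type, taken from male C57BL/6 mice that were 6 weeks old. Interferon arrays were made 2 h after 10000 U of interferon alpha was given under the skin. Baseline arrays came from mice for which the labels name no treatment and no vehicle injection. There were 9 sorted types. The myeloid ones were dendritic cells (CD11c+ Flt3+), peritoneal macrophages (F4/80+) and neutrophils (Ly6G+). The lymphoid ones were natural killer (NK) cells (NK1.1+), NKT cells (NK1.1+ TCRb+), gamma-delta T cells (TCRb-/TCRgd+), regulatory T cells (CD25+ CD4+) and the CD4+ and CD8+ T cells. All but the macrophages are labelled as spleen cells in their titles, except that the title of gamma-delta T cell baseline replicate 3 names no organ. Each type had 3 baseline and 2 interferon arrays, except that neutrophils had 2 baseline arrays and macrophages 1 interferon array. This gave 26 baseline and 17 interferon arrays. The labels do not say whether replicates came from separate mice, so the spread behind each p-value is that between arrays and may be technical. The sort wording for NK and NKT cells differs between baseline replicates 1 and 2 and the other arrays. The preparation wording of macrophage baseline replicates 1 and 2 names spleen beside a title of peritoneal cavity. For CD8+ T cells, baseline replicates 1 and 2 carry a source label of blood beside a title of spleen.

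As background, most family members work in ligand and receptor pairs. Tnfsf8 (CD30 ligand) binds Tnfrsf8 (CD30), Tnfsf15 (TL1A) binds Tnfrsf25 (DR3), Tnfsf9 (4-1BB ligand) binds Tnfrsf9 (4-1BB), and Tnfsf14 (LIGHT) binds Tnfrsf14 (HVEM). Tnfsf4 (OX40 ligand) binds Tnfrsf4 (OX40), Tnfsf18 binds Tnfrsf18 (GITR), Tnfsf11 (RANKL) binds Tnfrsf11a (RANK) and its soluble decoy Tnfrsf11b, and Tnfsf13b (BAFF) binds Tnfrsf13b, Tnfrsf13c and Tnfrsf17. The receptors Tnfrsf1a and Tnfrsf1b bind TNF itself. Receptors with a death domain, such as Tnfrsf1a and Tnfrsf10b, can start apoptosis. Most of the others recruit TRAF adaptors and lead mainly to the NF-kB transcription factors, while a few are decoys that bind ligand without a full signal. Several of the costimulatory receptors are well known from regulatory T cells, and BAFF is best known as a survival factor for B cells.

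For the members that carried the interferon results, and for a pair of contrasting ones, the promoter is printed here so that the sequence can be read beside the values. Each is the 300-base window from 250 bases before to 50 after a RefSeq transcription start on mouse build GRCm38.p6, 5′ to 3′ on the strand of the gene. Capitals mark matches to one of 3 short motifs that are described with the interferon values. The windows are chr4:63861235-63861534 (minus strand) for Tnfsf8, chr4:63745010-63745309 (minus) for Tnfsf15, chr8:10006383-10006682 (plus) for a start of Tnfsf13b and chr4:150927749-150928048 (plus) for a start of Tnfrsf9. Tnfsf8 and Tnfsf15 were raised by interferon, Tnfrsf9 was lowered in NKT cells, and Tnfsf13b is shown for its match to the interferon-stimulated response element.
Tnfsf8: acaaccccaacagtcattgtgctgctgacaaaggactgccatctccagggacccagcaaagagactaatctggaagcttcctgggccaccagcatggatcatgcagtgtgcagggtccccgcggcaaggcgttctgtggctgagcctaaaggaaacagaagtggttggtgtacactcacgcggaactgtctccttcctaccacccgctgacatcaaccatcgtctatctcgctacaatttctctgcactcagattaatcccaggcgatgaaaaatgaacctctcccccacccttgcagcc
Tnfsf15: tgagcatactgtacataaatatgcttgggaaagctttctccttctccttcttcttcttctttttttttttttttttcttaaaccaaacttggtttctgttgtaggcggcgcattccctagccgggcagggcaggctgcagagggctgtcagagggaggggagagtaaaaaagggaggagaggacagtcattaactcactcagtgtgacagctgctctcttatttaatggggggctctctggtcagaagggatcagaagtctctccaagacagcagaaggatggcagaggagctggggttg
Tnfsf13b: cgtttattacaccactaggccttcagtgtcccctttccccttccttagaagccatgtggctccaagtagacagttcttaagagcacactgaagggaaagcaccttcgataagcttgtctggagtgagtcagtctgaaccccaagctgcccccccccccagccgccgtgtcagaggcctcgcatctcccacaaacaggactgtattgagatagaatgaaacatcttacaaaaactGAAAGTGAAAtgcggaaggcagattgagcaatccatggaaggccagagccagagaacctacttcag
Tnfrsf9: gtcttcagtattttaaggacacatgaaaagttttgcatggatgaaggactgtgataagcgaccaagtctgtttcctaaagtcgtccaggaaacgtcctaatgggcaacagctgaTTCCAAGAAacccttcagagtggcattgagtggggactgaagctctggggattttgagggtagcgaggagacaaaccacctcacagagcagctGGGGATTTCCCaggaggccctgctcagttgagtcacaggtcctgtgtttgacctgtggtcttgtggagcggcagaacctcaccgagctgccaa

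Values are given as log2 of the normalised intensity that the authors deposited, so a difference of 1 is a 2-fold change. The median of an array lay between 6.71 and 6.97 on this scale. A probe set's brightness depends on its probes, so levels are compared between cell types for one gene and not between genes. A difference was called when its limma adjusted p (Benjamini-Hochberg over all 19752 genes) was under 0.05 and its size was at least 1 on the log2 scale. All 9 measured genes of an interferon check list rose in all 9 types. Of the 43 arrays, 41 correlated best with an array of their own type. The mean of the measured markers of each type was higher in its own arrays than in all others for 8 of the 9 types. For gamma-delta T cells only 3 of 6 listed markers were measured, Sox13, Blk and Cd3e. The T cell receptor genes Trdc, Tcrg-C1 and Tcrg-V4 were not. The margin there was small, with a lowest level of 9.39 in their own arrays and 9.21 in an NKT array. The CD4+ T cell list was the exception, with a lowest level of 11.17 in its own arrays and 11.33 in an NKT array. Preparation wording in the labels differs between baseline replicates 1 and 2 and most other arrays. Values with baseline replicate 3 alone are therefore given where they end a call of a member. Calls of genes outside the family were not checked in this way. Neutrophils have no baseline replicate 3, and the wording differs between all their baseline and all their interferon arrays. In NK, NKT and CD4+ T cells the interferon wording also differs from that of baseline replicate 3. For these types replicate 3 alone does not match the preparation wording.

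At rest, most members were read at different levels in different cell types. The baseline level differed among the 9 types for 23 of the 28 members, against 56.4% of all genes (limma F test, adjusted p under 0.05). The range between the lowest and highest type mean was at least 2-fold for 19 of 28 members and for 39% of all genes. Its median was 1.89 over the members and 0.74 over all genes on the log2 scale. Each type was then set against the mean of the other 8. In bulk samples of sorted cells, fewer cells of a type and less RNA per cell cannot be told apart.

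Regulatory T cells had 6 members called higher, where 2.07% of all genes were, and 2 called lower, where 1.95% were. NKT cells had 4 higher (1.93% of genes) and 0 lower (1.45%). CD4+ T cells had 3 higher (1.07%) and 1 lower (2.35%), and CD8+ T cells 3 higher (1.81%) and 3 lower (2.68%). In gamma-delta T cells 1 member was higher (0.876%) and 1 lower (1.44%), and in NK cells 0 were higher (2.39%) and 1 lower (2.3%). The myeloid types differed from the rest in both directions. Macrophages had 5 higher (6.16%) and 6 lower (3.73%), neutrophils 5 higher (6.03%) and 5 lower (10.1%), and dendritic cells 2 higher (4.84%) and 4 lower (2.48%).

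**Figure D1:**
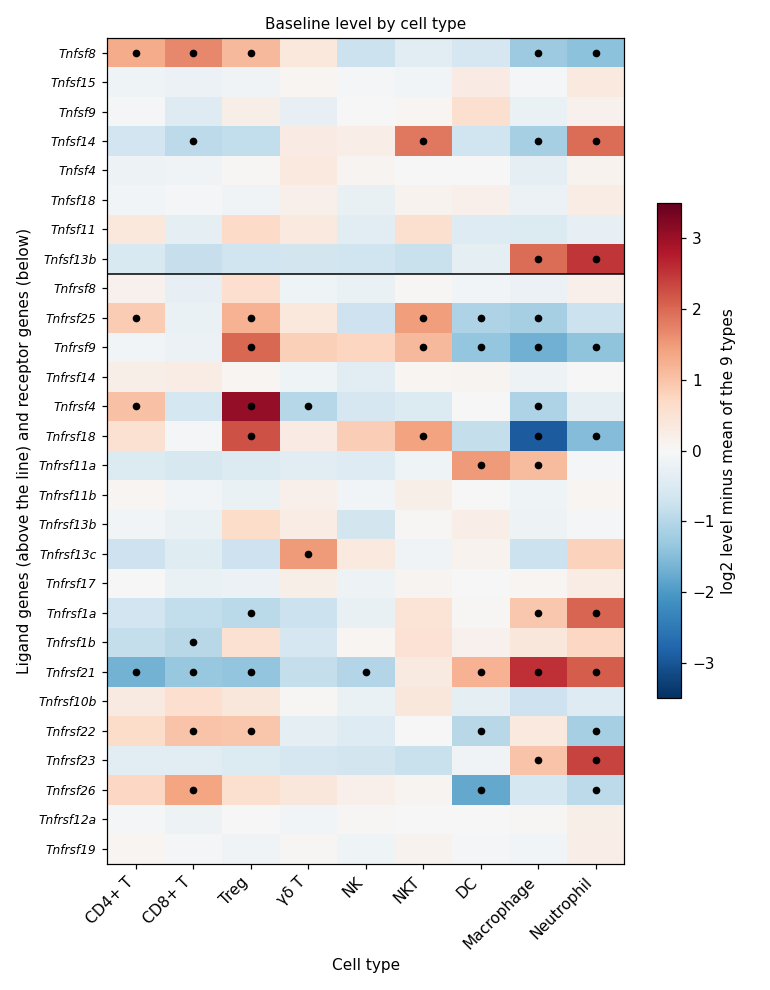
Baseline level of the 28 members (rows, ligands above the line) in the 9 cell types (columns), as the log2 level minus the mean of the 9 type means; dots mark members called in that type against the other 8. The costimulatory receptors Tnfrsf4, Tnfrsf18 and Tnfrsf9 are deepest red in regulatory T cells, while Tnfsf13b, Tnfrsf21, Tnfrsf23 and Tnfrsf1a are red in macrophages and neutrophils.

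Tnfrsf4, which encodes the costimulatory receptor OX40, gave the largest baseline difference among the members. Its regulatory T cell arrays read 11.01, 11.02 and 11.57 at baseline. The next type, CD4+ T cells, read 8.94, 8.93 and 9.56, and no array of another type reached 8.5 at rest. Regulatory T cells stood 3.46 above the mean of the other types (SE 0.159, limma adjusted p = 3.51e-18), and CD4+ T cells 1.15 (adjusted p = 1.18e-06). Without baseline replicate 3 the CD4+ value was 0.94 and no longer reached 2-fold. The lowest arrays were those of macrophages, at 7.30, 6.97 and 6.87, and of gamma-delta T cells, at 6.77, 7.64 and 7.003.

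Tnfrsf18, which encodes GITR, is the next protein-coding gene to Tnfrsf4 on chromosome 4 in RefSeq. Its regulatory T cell arrays read 11.59, 11.45 and 11.62 at rest, 2.51 above the other types (SE 0.126, limma adjusted p = 4.92e-17). NKT cells came next with 10.55, 10.61 and 11.02 (1.58 above the other types), followed by NK cells with 10.17, 10.04 and 10.33. The gene spanned a wider range than its neighbour: macrophages read 6.65, 6.28 and 6.34, a difference of -3.26 from the other types (adjusted p = 2.83e-21). Neutrophils read 7.76 and 7.87, a difference of -1.69. OX40 and GITR were thus both highest in regulatory T cells but differed in the second place, taken by CD4+ T cells for Tnfrsf4 and by NKT cells for Tnfrsf18.

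Tnfrsf9 encodes 4-1BB, a costimulatory receptor of activated T and NK cells. It read 10.71, 10.77 and 11.05 in regulatory T cells and 10.05, 9.82 and 10.06 in NKT cells, so that its difference was 2.26 (SE 0.193, limma adjusted p = 3.76e-11) in the former and 1.28 (adjusted p = 5.21e-06) in the latter. Gamma-delta T cells (10.32, 9.13 and 9.57) and NK cells (9.22, 9.24 and 10.26) overlapped each other and the NKT cells, and lay above the CD4+ and CD8+ T cells. Dendritic cells, macrophages and neutrophils lay at 7.68 or under in every baseline array and were called lower, by -1.53, -1.88 and -1.57. In the gamma-delta T cell array with 10.32, the mean of 6 NK cell markers was also the highest of that type at 9.03, against 7.53 and 6.68 in the other baseline arrays. The part of those markers in the Tnfrsf9 level was not tested.

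Against CD4+ T cells alone, 4 members were higher in regulatory T cells (0.957% of all genes) and 0 were lower (0.263%). They were Tnfrsf9 (2.11, SE 0.256, limma adjusted p = 5.04e-07), Tnfrsf4 (2.06, SE 0.211, adjusted p = 1.6e-08), Tnfrsf18 (1.71, SE 0.168, adjusted p = 5.8e-09) and Tnfrsf1b (1.38, SE 0.166, adjusted p = 4.11e-07). Tnfrsf1b encodes TNF receptor 2, the TNF receptor without a death domain. It read 10.42, 10.33 and 10.26 in regulatory T cells against 8.96, 9.12 and 8.79 in CD4+ T cells. Regulatory T cells were not alone in this: neutrophils (10.47 and 10.60), NKT cells (10.59, 10.18 and 10.17) and macrophages (10.19, 10.16 and 10.27) read about as high. CD8+ T cells were lowest for it at 8.83, 8.83 and 8.78, a called difference of -1.11 from the other types. Tnfrsf13b, the BAFF receptor TACI, differed by 0.73 (adjusted p = 0.00163), and Tnfrsf8, encoding CD30, read 7.32, 7.15 and 7.58 in regulatory T cells and 6.80, 6.89 and 7.04 in CD4+ T cells, both under 2-fold. All 4 calls held whichever of the 6 arrays was left out.

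**Figure D2:**
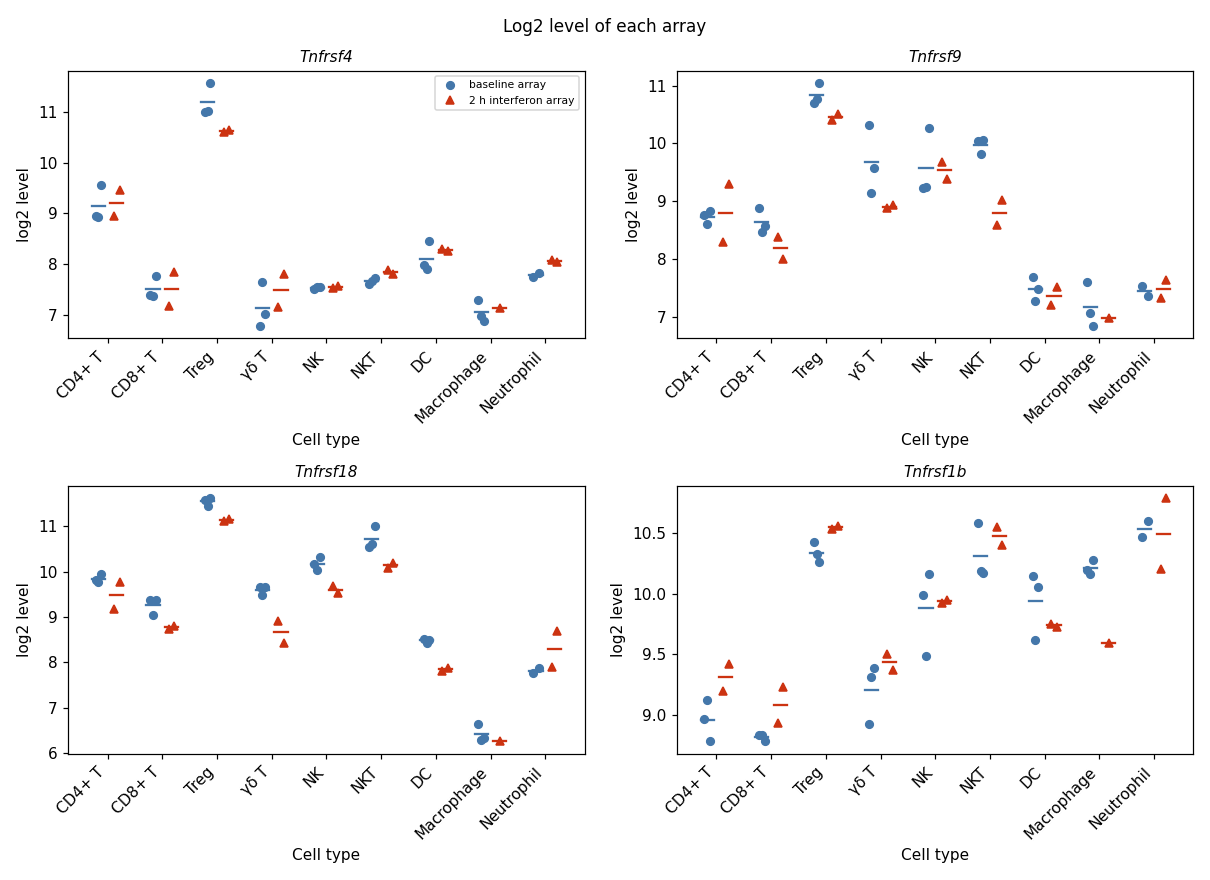
Log2 level of Tnfrsf4, Tnfrsf9, Tnfrsf18 and Tnfrsf1b on each array (y axes, each panel with its own scale that does not start at 0) by cell type (x axis); circles are baseline arrays, triangles arrays 2 h after interferon, bars their means. Regulatory T cells lie above CD4+ T cells in all 4 panels, and for Tnfrsf1b several other types lie as high.

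Further members followed lymphoid types. Tnfrsf25, the death-domain receptor DR3, read 9.60, 9.60 and 9.81 in NKT cells, 9.54, 9.57 and 9.16 in regulatory T cells and 9.13, 9.20 and 8.98 in CD4+ T cells. These types were higher than the rest by 1.65, 1.37 and 1.01, and the CD4+ value fell under 2-fold without baseline replicate 1 (0.998) or 2 (0.96) and with baseline replicate 3 alone (0.88). Dendritic cells and macrophages, at 7.20 or under in every baseline array, were lower (-1.23 and -1.32). Tnfsf8, the CD30 ligand, was higher in CD8+ (1.90), CD4+ (1.46) and regulatory T cells (1.29) and lower in neutrophils (-1.63) and macrophages (-1.44). With baseline replicate 3 alone the CD4+ difference was 0.95 (limma adjusted p = 0.0356), under 2-fold, and the regulatory T cell difference 0.76 (adjusted p = 0.213), so neither was called. The values of Tnfsf8 on each array follow with the interferon results.

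Another group was the cluster of Tnfrsf26, Tnfrsf22 and Tnfrsf23, consecutive protein-coding genes on chromosome 7. Tnfrsf22 and Tnfrsf23 are known as mouse decoy receptors for the TNF-related apoptosis-inducing ligand. Tnfrsf26 read 9.62, 9.73 and 9.98 in CD8+ T cells (1.56 above the other types) and only 6.62, 6.52 and 6.63 in dendritic cells (difference -2.03). Tnfrsf22 was higher in CD8+ T cells (9.31, 9.51 and 9.25, difference 1.12) and regulatory T cells (9.33, 9.25 and 9.40, difference 1.09) and lower in dendritic cells (-1.09) and neutrophils (-1.32). With baseline replicate 3 alone the CD8+ difference of Tnfrsf22 was 0.85 (limma adjusted p = 0.0791) and not called. Tnfrsf23 had another distribution: it read 9.20 and 9.30 in neutrophils and 7.36, 7.93 and 8.34 in macrophages, and at most 6.84 in any baseline array of the other types. The excess was 2.68 in neutrophils (SE 0.202, limma adjusted p = 3.81e-13) and 1.12 in macrophages, or 0.89 without macrophage baseline replicate 3. These adjacent genes therefore peaked in different cells, the first pair in T cells and Tnfrsf23 in neutrophils.

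The myeloid members included a ligand and several receptors. Tnfsf13b, encoding the B cell survival factor BAFF, read 9.02 and 9.37 in neutrophils and 8.33, 8.76 and 8.81 in macrophages. In the other 7 types no baseline array exceeded 6.49. The excess was 2.81 in neutrophils (SE 0.145, limma adjusted p = 2.02e-17) and 2.18 in macrophages (SE 0.121, adjusted p = 7.38e-17). Dendritic cells, at 6.45, 6.44 and 6.25, lay with the lymphocytes.

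Tnfrsf21, the death receptor DR6, was highest in macrophages (10.26, 10.51 and 10.88), then neutrophils (9.90 and 10.29), then dendritic cells (9.43, 9.08 and 9.08). Macrophage and neutrophil arrays overlapped slightly, since 10.26 lies below 10.29. The differences from the other types were 2.89, 2.38 and 1.37. CD4+ T cells, regulatory T cells, CD8+ T cells and NK cells were lower, with differences between -1.86 and -1.15. The smallest, in NK cells, was -0.87 with baseline replicate 3 alone (limma adjusted p = 0.136). Among lymphocytes, NKT cells stood apart with 8.87, 7.62 and 8.42. The mean of 8 macrophage markers in those NKT arrays was 8.55, 7.48 and 8.23, in the same order, against 6.47 to 6.80 in NK cells at baseline. The part of macrophage RNA in the NKT level of Tnfrsf21 was not tested.

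Tnfrsf1a, the death-domain receptor for TNF, read 11.46 and 11.55 in neutrophils and 10.18, 10.46 and 10.64 in macrophages, 2.28 and 1.06 above the other types. The macrophage value was 0.96 without baseline replicate 3. Regulatory T cells were lower by -1.05, with arrays of 8.55, 8.67 and 8.41, or by -0.90 with baseline replicate 3 alone. For Tnfrsf1a they overlapped the CD4+ T cells, at 9.05, 8.996 and 8.37, whereas for Tnfrsf1b they lay above them. Tnfrsf11a, encoding RANK, read 8.38, 7.92 and 8.13 in dendritic cells and 7.68, 7.85 and 7.74 in macrophages, which were 1.68 and 1.25 above the rest. Its ligand gene Tnfsf11 gave no baseline call and was read between 7.59 and 9.04, with regulatory T cells (9.03, 8.83 and 8.94), NKT cells (8.69, 9.03 and 8.72) and CD4+ T cells (8.52, 8.37 and 9.04) uppermost and overlapping.

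Tnfsf14, the ligand LIGHT, was high in a lymphoid and a myeloid type at once. NKT cells read 9.02, 9.34 and 9.12 and neutrophils 9.34 and 9.22, overlapping each other and standing 2.07 (SE 0.14, limma adjusted p = 1.78e-13) and 2.20 (SE 0.168, adjusted p = 5.5e-13) above the other types. Gamma-delta T cells and NK cells lay between 7.31 and 7.97. Macrophages read 6.17, 6.16 and 6.20 (difference -1.29) and CD8+ T cells 6.33, 6.45 and 6.44 (-1.03, or -0.99 without baseline replicate 1 and -0.73 with baseline replicate 3 alone, adjusted p = 0.117 by limma). Its receptor gene Tnfrsf14 was nearly even, with all baseline arrays between 8.95 and 9.87 and no call.

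Tnfrsf13c, encoding the BAFF receptor of B cells, was called higher in gamma-delta T cells by 1.68 (SE 0.258, limma adjusted p = 1.3e-05). The gamma-delta arrays read 10.36, 8.83 and 11.32. The mean of 9 B cell markers in the same arrays was 8.60, 7.35 and 9.85, in the same order, against 5.97 to 6.17 in NK cells at baseline. Leaving out each gamma-delta array in turn gave differences between 1.11 and 2.35. In neutrophils the gene read 9.86 and 9.13, with B cell markers at 8.64 and 7.89. The part of B cell RNA in either level was not tested.

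Another 8 members passed the F test at rest without a call in any one type. They were the ligand genes Tnfsf4, Tnfsf9, Tnfsf11 and Tnfsf15 and the receptor genes Tnfrsf8, Tnfrsf10b, Tnfrsf13b and Tnfrsf14. Tnfrsf10b, the mouse death receptor for the TNF-related apoptosis-inducing ligand, read 7.14, 7.11 and 7.06 in CD8+ T cells and 6.21, 5.69 and 5.54 in macrophages, the ends of its range. Tnfrsf13b, the BAFF receptor TACI, read 8.95, 8.67 and 8.97 in regulatory T cells and 7.46, 7.88 and 7.37 in NK cells. These groups did not overlap, but each stood less than 2-fold from the mean of the other types (0.73 and -0.73).

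Tnfrsf11b, Tnfrsf12a, Tnfrsf17, Tnfrsf19 and Tnfsf18 were the 5 members whose baseline level did not pass the F test. Tnfrsf12a, the receptor of the ligand TWEAK, read between 7.09 and 7.69 on all 43 arrays. Tnfsf4, the OX40 ligand, and Tnfsf18, the GITR ligand, are neighbours on chromosome 1. Both were dim, with at most 5.62 for Tnfsf4 and 5.87 for Tnfsf18 on any array. They lay, like Tnfrsf11b, Tnfrsf17 and Tnfrsf19, under log2 7 on all 43 arrays, apart from 1 array for Tnfrsf11b. Tnfsf4 passed the F test (adjusted p = 0.0415), with type means from 4.73 in macrophages to 5.38 in gamma-delta T cells. The other 4 did not pass it. The ligand genes of OX40 and GITR were thus dim in all the types studied, dendritic cells included, while their receptor genes covered a wide range.

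Interferon moved few members at 2 h. Over the mean of the 9 types, 1 member rose by at least 2-fold (1.26% of all genes) and 0 fell (0.0658%). By adjusted p alone, 2 members were higher (9.55% of genes) and 7 lower (17.5%). The median difference was -0.06 over the members and -0.01 over all genes. By cell type, members that rose numbered 2 in dendritic cells (2.34% of genes), 1 each in NKT cells (2.89%), NK cells (1.25%) and gamma-delta T cells (1.53%), and 0 in macrophages (1.35%), neutrophils (2.43%), regulatory T cells (1.11%), CD4+ T cells (0.901%) and CD8+ T cells (1%). Members that fell numbered 1 each in CD8+ T cells (0.319%), NKT cells (0.38%) and neutrophils (2.85%). None fell in dendritic cells (0.81%), macrophages (0.263%), NK cells (0.537%), gamma-delta T cells (0.683%), CD4+ T cells (0.0658%) or regulatory T cells (0.0253%). The effect differed among types for 3 of 28 members, Tnfsf15, Tnfsf9 and Tnfsf8, against 4.16% of genes (limma F test). All 3 were ligands, but the receptors Tnfrsf18, Tnfrsf1a and Tnfrsf26 lay just past the limit (adjusted p of 0.0618, 0.0626 and 0.0684 by the same limma F test). The count ranged from 1 to 6 when 1 array was left out.

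**Figure D3:**
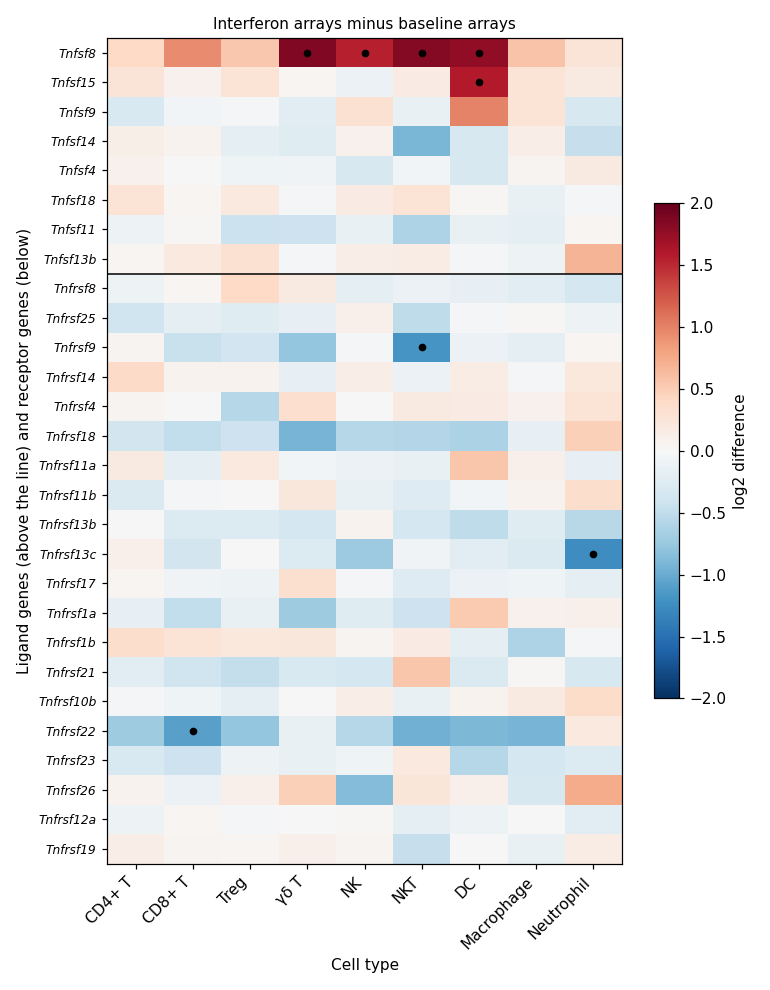
Log2 difference between interferon and baseline arrays for the 28 members (rows, ligands above the line) in the 9 cell types (columns); dots mark calls. Tnfsf8 is red across most types with calls in 4 of them, Tnfsf15 is called in dendritic cells only, and the calls among receptors are decreases.

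Tnfsf8, the CD30 ligand, was the member that rose in the most cell types. Gamma-delta T cells read 7.02, 7.66 and 7.17 at baseline and 9.03 and 9.26 after interferon. Dendritic cells read 6.27, 6.52 and 6.21 at baseline and 7.89 and 8.33 after interferon. NKT cells read 5.91, 6.46 and 7.19 and then 7.94 and 8.77. In each, both interferon arrays lay above all 3 baseline arrays, and the same held in NK cells, with 6.08, 5.60 and 6.82 at baseline and 7.69 and 7.77 after interferon. The differences were 1.86 in gamma-delta T cells (SE 0.30, limma adjusted p = 6.49e-05), 1.83 in NKT cells (adjusted p = 5.44e-05), 1.77 in dendritic cells (adjusted p = 7.45e-05) and 1.56 in NK cells (adjusted p = 8.84e-04).

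In T cells with higher resting Tnfsf8 levels the differences were smaller and not called. CD8+ T cells read 8.46, 8.67 and 8.72 and then 9.07 and 10.06, a difference of 0.95 (limma adjusted p = 0.091), and the interferon arrays lay a full unit apart. CD4+ T cells read 8.25, 8.37 and 8.04 and then 8.59 and 8.65, and regulatory T cells 8.12, 8.22 and 7.88 and then 8.68 and 8.56. These differences were 0.39 and 0.54. The single macrophage interferon array read 6.21 against 5.50, 5.75 and 5.68 (difference 0.57). Neutrophils overlapped, with 5.77 and 5.19 and then 5.85 and 5.62. The interferon arrays were therefore above all baseline arrays in 8 of the 9 types. Such separation was common with so few arrays. In these types it held for between 10.7% of all genes (gamma-delta T cells) and 17.3% (regulatory T cells). In macrophages it rests on 1 interferon array, and 16.1% of genes lay above there.

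Averaged over the 9 types, Tnfsf8 rose by 1.08 (SE 0.104, limma adjusted p = 3.75e-10). The effect differed among types (F = 4.69, adjusted p = 0.0221), though no single type differed from the mean of the other 8 by a called amount. The lowest adjusted p of those 9 tests was 0.137, for neutrophils (-0.93). The resting order of the types was not kept: gamma-delta T cells, which lay below the CD4+ and regulatory T cells at baseline, lay above both after interferon. With baseline replicate 3 alone, the differences remained called in gamma-delta T cells (1.97, adjusted p = 0.00116) and dendritic cells (1.90, adjusted p = 0.00154). They were 1.17 in NKT cells (adjusted p = 0.0889) and 0.91 in NK cells (adjusted p = 0.202), which were not called. The baseline NK and NKT arrays with the highest Tnfsf8 level were both replicate 3. With a term for the preparation wording the mean effect was 0.97 (adjusted p = 5.9e-06), just under 2-fold.

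**Figure D4:**
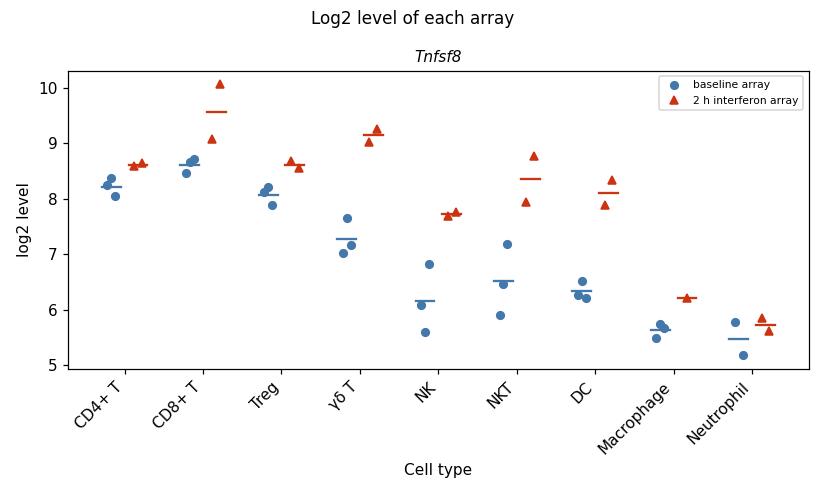
Log2 level of Tnfsf8 on each array (y axis, not starting at 0) by cell type (x axis); circles are baseline arrays, triangles arrays 2 h after interferon, bars their means. Interferon arrays lie above baseline arrays in 8 of the 9 types, by 1.86 in gamma-delta T cells and 1.77 in dendritic cells, and overlap them in neutrophils.

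Marker lists of other cells also moved in the types where Tnfsf8 was called. In dendritic cells the mean of 5 regulatory T cell markers was 7.15 to 7.29 at baseline and 7.87 to 8.02 after interferon, with Ikzf2 called higher, and the mean of 5 CD4+ T cell markers 6.69 to 6.96 and then 6.96 to 7.01. The mean of 3 monocyte markers was 7.81 to 8.13 and then 8.55 to 8.79, with Fcgr1 called higher and Cx3cr1 lower. B cell markers went the other way in dendritic cells, from 6.85 to 7.41 at baseline to 6.56 to 6.63, with Cd79b called lower, and plasma cell markers lay at 8.11 to 8.25 and then 7.43 to 7.67. In NK cells the CD4+ T cell markers were 7.57 to 7.79 at baseline and 7.40 to 7.53 after interferon, with Lef1 called lower, and the regulatory T cell markers 6.74 to 6.96 and then 7.14 to 7.27, with Il2ra called higher. In gamma-delta T cells the NK cell markers were 6.68 to 9.03 at baseline and 7.02 to 7.05 after interferon. Of these, Eomes was called higher and Klrb1c, Klra8 and Klre1 lower. B cell markers there were 7.35 to 9.85 and then 7.57 to 9.40. In NKT cells the monocyte markers were 7.53 to 8.01 and then 8.24 to 9.04. The NK cell markers were 8.44 to 9.07 and then 9.13 to 9.45. The CD4+ T cell markers were 10.96 to 11.33 and then 10.54 to 10.78. Further lists separated fully, and not all of them are given. In dendritic cells the CD8+ T cell markers were 7.23 to 7.45 and then 7.55 to 7.56. The macrophage markers there were 8.11 to 8.42 and then 7.89 to 8.08. In NK cells the macrophage markers were 6.47 to 6.80 and then 6.93 to 6.94. The NKT markers in gamma-delta T cells were 10.35 to 10.63 and then 9.81 to 9.998. The part of other cells in the results for Tnfsf8 and for the other dendritic cell genes was not tested.

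The receptor gene for this ligand, Tnfrsf8, gave no interferon call in any type. Its regulatory T cell arrays, the brightest for this gene, read 7.77 and 7.74 after interferon against 7.32, 7.15 and 7.58 at baseline.

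Tnfsf15, which encodes the DR3 ligand TL1A, is next to Tnfsf8 on chromosome 4 and rose in dendritic cells. Its dendritic cell arrays read 6.64, 6.36 and 6.77 at baseline and 8.12 and 8.22 after interferon, a 2.99-fold increase (log2 difference 1.58, SE 0.154, limma adjusted p = 2.26e-09). The call held under every alternative run. Of these, the filter on dim genes (log2 7 in at least 2 arrays) adds no support. The 2 dendritic cell interferon arrays are themselves enough to pass it. In the other 8 types the arrays lay between 5.93 and 7.18 under both conditions, and no call was made. Those levels lie around or under the array medians of 6.71 to 6.97, where changes may be understated. The excess of the dendritic cell effect over the mean of the other 8 was 1.44 (SE 0.164, adjusted p = 4.31e-07), and the F test over types gave 10.4 (adjusted p = 7.4e-05). The gene pair thus shared a rise in dendritic cells, while in gamma-delta T cells, where Tnfsf8 rose, Tnfsf15 read 6.35, 6.41 and 6.41 at baseline and 6.33 and 6.53 after interferon. The receptor gene Tnfrsf25, high in NKT, regulatory and CD4+ T cells, was not called in any type under interferon. It was lower by less than 2-fold, with a limma adjusted p under 0.05, in NKT cells (-0.50) and on average over all types (-0.17).

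Tnfsf9, which encodes the 4-1BB ligand, gave a further dendritic cell difference. The arrays read 6.50, 6.74 and 6.63 at baseline and 7.54 and 7.71 after interferon. The difference of 0.997 (SE 0.167, limma adjusted p = 6.69e-05) was just under the 2-fold limit. Against the mean effect in the other types it was 1.06 (SE 0.178, adjusted p = 2.68e-04), which was called as Tnfsf15 was (2 members, against 0.896% of all genes), and the F test gave 6.08 (adjusted p = 0.0046). That excess was 0.997 without dendritic cell baseline replicate 1 and 0.98 without interferon replicate 2. With the replicate number as a block the dendritic cell difference was 1.04, and with quantile normalization 1.09, both past the limit. In the other types Tnfsf9 lay between 5.52 and 6.61 in all arrays. That is under the lowest array median of 6.71, and changes at such dim levels may be understated.

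**Figure D5:**
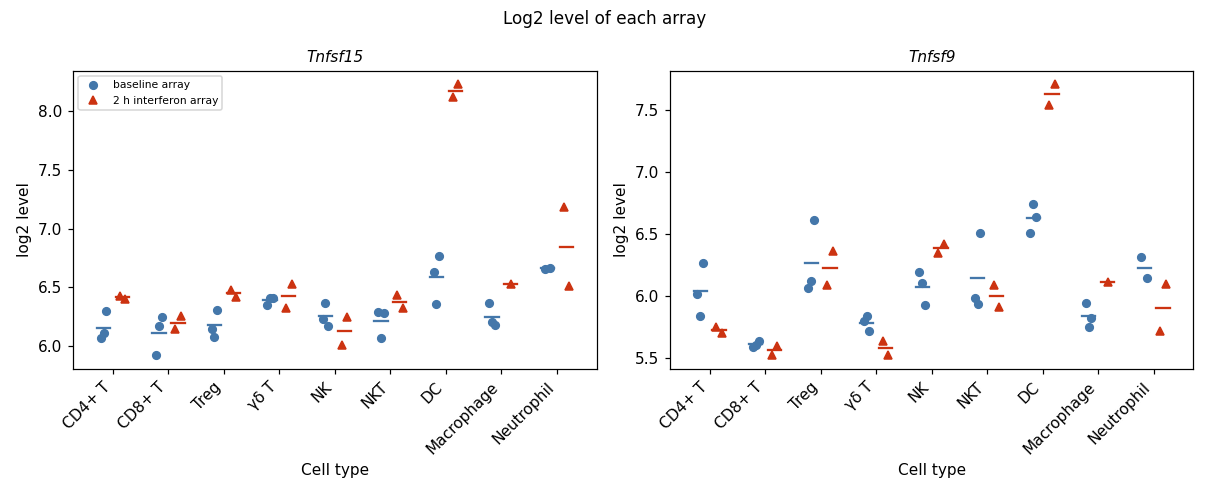
Log2 level of Tnfsf15 (left) and Tnfsf9 (right) on each array (y axes, not starting at 0) by cell type (x axis); circles are baseline arrays, triangles arrays 2 h after interferon, bars their means. The interferon arrays of dendritic cells, at 8.12 and 8.22 for Tnfsf15 and at 7.54 and 7.71 for Tnfsf9, lie above all other arrays in their panel.

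Other ligand and receptor genes of the superfamily that bear other names were few to change. Of 7 other ligands measured, Tnf rose in dendritic cells, from 8.68, 8.94 and 9.07 to 9.86 and 9.95 (difference 1.01, limma adjusted p = 0.0103), and no other was called under interferon in any type. Of 8 other receptors, Cd40, the receptor by which T cells license dendritic cells, rose in dendritic cells from 9.80, 9.48 and 9.93 to 11.84 and 11.95 (difference 2.16, adjusted p = 4.64e-07). No other was called. The superfamily calls in dendritic cells were thus Tnfsf8, Tnfsf15, Tnf and Cd40, in a type where 2.34% of all genes rose.

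In dendritic cells a receptor difference was also positive but under 2-fold. Tnfrsf11a read 8.38, 7.92 and 8.13 at baseline and 8.57 and 8.81 after interferon in them (0.55, limma adjusted p = 0.0404). Tnfrsf1a read 9.59, 9.59 and 9.37 and then 10.10 and 9.99, a difference of 0.53 that did not pass the test (adjusted p = 0.0906) but lay 0.78 above the mean of the others (SE 0.198, adjusted p = 0.0254). In gamma-delta T cells, by contrast, Tnfrsf1a read 8.61, 8.70 and 8.86 and then 8.14 and 7.87, a difference of -0.72 (adjusted p = 0.014).

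The called decreases were of receptors, each in 1 type. Tnfrsf22, the decoy receptor, read 9.31, 9.51 and 9.25 in CD8+ T cells at baseline and 8.03 and 8.50 after interferon, a difference of -1.09 (SE 0.245, limma adjusted p = 0.00696). It was negative by less than 2-fold, with an adjusted p under 0.05, in NKT cells (-0.96, adjusted p = 0.00992) and dendritic cells (-0.90, adjusted p = 0.0168). Its mean over the 9 types was -0.66 (SE 0.085, adjusted p = 1.88e-07). Neutrophils, with 6.96 and 7.42 at baseline and 7.30 and 7.46 after interferon, differed from the mean effect of the others by 0.95 (SE 0.283, adjusted p = 0.0475). With baseline replicate 3 alone the CD8+ difference was -0.98 (adjusted p = 0.253), and without CD8+ interferon replicate 1 it was -0.85 (adjusted p = 0.266), so this call rests on few arrays. Its neighbours gave no call in the main fit: Tnfrsf26 differed by -0.87 in NK cells (adjusted p = 0.0247) and by 0.75 in neutrophils (adjusted p = 0.0482). The NK difference passed 2-fold with baseline replicate 3 alone (-1.19) and with the preparation term (-1.005). Leaving out 1 NK array at a time gave -1.09 to -0.71.

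Tnfrsf9, encoding 4-1BB, fell in NKT cells from 10.05, 9.82 and 10.06 to 8.58 and 9.01, a difference of -1.18 (SE 0.286, limma adjusted p = 0.00669). Both interferon arrays lay below all baseline arrays, as they did for 28.6% of all genes in NKT cells. The difference was -1.27 with baseline replicate 3 alone (adjusted p = 0.071) and -0.96 without interferon replicate 1 (adjusted p = 0.182). It was not shown to differ from the effect in the other types (excess -0.94, adjusted p = 0.179). In regulatory T cells, where this gene was highest, it read 10.40 and 10.52 after interferon against 10.71 to 11.05 at baseline, which was not called. Over the 9 types its mean difference was -0.34 (SE 0.0996, adjusted p = 0.00939). Tnfsf14 also read lower in NKT cells after interferon, at 7.91 and 8.57 against 9.02, 9.34 and 9.12 (-0.92, adjusted p = 0.00341). The mean of the macrophage markers in NKT cells was 8.96 and 8.27 after interferon and 7.48 to 8.55 at baseline. Some other lists separated fully. NK cell markers went from 8.44 to 9.07 at baseline to 9.13 to 9.45, and monocyte markers from 7.53 to 8.01 to 8.24 to 9.04. The NKT markers themselves went from 11.93 to 12.04 to 11.37 to 11.52. CD4+ T cell markers went from 10.96 to 11.33 to 10.54 to 10.78, and gamma-delta T cell markers from 9.07 to 9.21 to 8.78 to 8.89. The part of these shifts in the differences was not tested.

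Tnfrsf18, encoding GITR, gave a small negative difference in most types. Gamma-delta T cells read 9.65, 9.48 and 9.67 at baseline and 8.91 and 8.43 after interferon (-0.93, limma adjusted p = 0.00125), dendritic cells differed by -0.64 and NKT cells by -0.59. The gamma-delta difference passed 2-fold with baseline replicate 3 alone (-1.001) and with the preparation term (-1.02). Over the 9 types the mean was -0.41 (SE 0.065, adjusted p = 6.67e-06). Neutrophils read 7.76 and 7.87 and then 7.90 and 8.69, and their effect exceeded the mean of the others by 0.999 (SE 0.217, adjusted p = 0.00407), largely through 1 array. Without neutrophil interferon replicate 2 that excess was 0.60, and without replicate 1 it was 1.39. Its neighbour Tnfrsf4 was not called in any type.

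Tnfrsf13c fell in neutrophils from 9.86 and 9.13 to 8.26 and 8.24, a difference of -1.24 (SE 0.42, limma adjusted p = 0.0489). The call was lost when any 1 of the 4 neutrophil arrays was left out, and with quantile normalization the difference was -0.81 (adjusted p = 0.259). The mean of the 9 B cell markers fell beside it, from 8.64 and 7.89 to 6.33 and 6.25, and 6 of the 9, among them Cd79a, Ms4a1 and Pax5, were called lower. Their part in the result was not tested. Tnfrsf13b, another BAFF receptor expressed by B cells, differed by -0.55 in the same cells. Tnfsf13b itself, the ligand, differed by 0.68 in neutrophils (adjusted p = 0.0198), with 9.02 and 9.37 before and 9.71 and 10.04 after, and stayed under 2-fold.

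Promoter windows were found for 22 of the 28 members, 26 starts in all, in the RefSeq table of 32851 promoters. They were searched on both strands for the interferon-stimulated response element (GAAA, any 2 bases, GAAA), the gamma-activated site TTCNNNGAA and the NF-kB motif. The first was in 3.44% of all windows and in 4 of the 26 member windows, those of Tnfrsf14, Tnfrsf17, Tnfrsf1b and Tnfsf13b. None of these 4 genes was called under interferon in any type. It was also in 4 of the 7 windows of the interferon check genes that had one. The printed Tnfsf8 and Tnfsf15 windows hold none of the 3 motifs, which says only that these letters are not in these windows. The gamma-activated site was in 8.3% of all windows and in 6 of the members' windows, among them Tnfrsf18 and the printed Tnfrsf9 window, where it starts at -136. The NF-kB motif was in 4.51% of all windows and in 2 of the members'. The Tnfrsf9 window holds it in overlapping matches that start at -43 and -42.

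The signalling genes downstream of these receptors were followed as lists. Of 13 measured adaptors and ubiquitin ligases, Birc2, the ligase cIAP1, rose in CD8+ T cells (1.06) and NKT cells (1.19), Tank in NKT cells (1.34) and Rnf31, of the linear ubiquitin complex, in neutrophils (1.13), and none fell. Of 11 measured NF-kB kinases and subunits, none rose and Map3k14, the kinase NIK of the alternative pathway, fell in neutrophils (-1.17). Nfkb1 and Chuk of that list were not measured. Of 11 inhibitors and feedback genes, Bcl3 rose in NK cells (1.58) and fell in neutrophils (-1.12). Of 5 measured genes of the death branch, Mlkl, the effector of necroptosis, rose in all 9 types, by 1.38 to 3.40. Casp8, the caspase that death receptors activate, rose in gamma-delta T cells (1.19), NKT cells (1.38) and neutrophils (2.39). Cflar, which encodes its inhibitor c-FLIP, rose in NKT cells (1.19), dendritic cells (1.37) and neutrophils (1.04). Bid and Ripk3 were called in no type, so that in 5 of the 9 types Mlkl was the one call of this list. The shares of all genes that rose or fell in each type stand with the family's counts above. The median difference over the 9 types was 0.82 for the death branch, 0.22 for the inhibitors, 0.00 for the adaptors and -0.12 for the kinases and subunits, beside -0.06 for the family and -0.01 for all genes.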

How the data were processed

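Sorted cells were measured on 43 Affymetrix Mouse Gene 1.0 ST arrays with RNA from TriZol and the Ambion WT Expression Kit, per the labels' protocols. The authors deposited normalised intensity values of 24922 probe sets on a linear scale (4.69 to 22042). Affymetrix Power Tools and RMA are named in the submitters' processing notes, without versions, and the genome build is not given in the sources used here. RMA pulls low values together, so changes of dim genes may be understated.

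Here log2 was taken with no pseudocount. Of the probe sets, 21425 had 1 symbol, 1399 several and 2098 none, and the brightest probe set stood for each of 19752 genes (921 had several). limma 3.58.1 in R 4.3.3 (lmFit, eBayes) was fitted to 18 groups, cell type by treatment, with 25 residual degrees of freedom, and was tested on simulated data. For macrophages the 1 interferon array takes its spread from the other groups. Arrays give no counts, so the number of arrays limits the precision.

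Members, lists and tests were chosen with earlier results of these data known. Every member could be named, and other genes only from the lists, given as counts and medians. Members called under interferon or at baseline were described by array, the rest by range and count. Alternatives were a preparation term, baseline replicate 3 only, each type fitted alone, a replicate block, quantile normalization, a filter on dim genes (log2 7 in at least 2 arrays, passed by 12349 genes and 23 members), the mean of probe sets, eBayes with trend and robust, and leaving out each array. Same-numbered arrays did not deviate together in every type (correlations of deviations from -0.291 in gamma-delta T cells to 0.347 in neutrophils), so the replicate numbers were not taken to pair arrays.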

Additional observations from a re-analysis of the deposited data

Results flagged for a closer look

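The interferon effect of 3 ligands differed among the 9 cell types by limma's F test, with F of 10.4 for Tnfsf15, 6.08 for Tnfsf9 and 4.69 for Tnfsf8. In dendritic cells the effect exceeded the mean effect of the other 8 types by 1.44 for Tnfsf15, by 1.06 for Tnfsf9 and by 0.777 for Tnfrsf1a on the log2 scale. In neutrophils it exceeded that of the other types by 0.999 for Tnfrsf18 and by 0.953 for Tnfrsf22. In those other types the interferon effect of both receptors was negative on average. No group had 4 arrays, so the groups were too small for a check on single outlying arrays.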

How the results depend on the processing

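No result changed sign as a called value. With the replicate number as a block, no count of called members moved by over 1.5 times: members raised in dendritic cells numbered 3 in place of 2 with Tnfsf9 (1.04), those lower in neutrophils at rest 4 in place of 5 without Tnfrsf26 (-0.97), those higher there 6 in place of 5, and those whose effect differed among types 4 in place of 3. With baseline replicate 3 alone, members lowered by interferon numbered 0 in CD8+ T cells and 0 in NKT cells, and 1 each in gamma-delta T cells and NK cells. Members raised numbered 0 in NK cells and 0 in NKT cells, and members whose effect differed among types 1 in place of 3. At rest the same setting gave 1 higher and 2 lower in CD4+ T cells, 1 lower in regulatory T cells, and 1 higher and 0 lower in NK cells. With the preparation term, 1 member fell in NK cells, 1 in gamma-delta T cells, and 0 rose on average. With NKT cells fitted alone, 0 rose. With quantile normalization, 1 member rose in CD8+ T cells (Tnfsf8), 0 fell in neutrophils, 2 were higher in gamma-delta T cells at rest and 8 differed in effect among types; Tnfsf9 was gained in dendritic cells (1.09), and at rest Tnfrsf22 was lost in regulatory T cells (0.95), Tnfsf14 in CD8+ T cells (-0.93) and Tnfrsf26 in neutrophils (-0.80). With trend and robust, 0 fell in neutrophils. With the dim filter 4 differed in effect among types, and the mean of probe sets changed no count. Counts that changed by less than 1.5 times and are not given here include those at rest with baseline replicate 3 alone.

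Leaving out 1 array of the type at a time gave these ranges: raised, 0 to 1 in CD8+ T cells, 1 to 2 in NKT cells, 2 to 3 in dendritic cells and 0 to 1 in neutrophils; lowered, 0 to 1 in each of neutrophils, dendritic cells, NK cells, CD8+ T cells and gamma-delta T cells, and 0 to 3 in NKT cells. At rest they were 2 higher in every case and 1 to 2 lower in CD4+ T cells, 2 to 3 lower in CD8+ T cells, 5 to 6 higher and 4 to 5 lower in neutrophils, 1 to 2 higher in gamma-delta T cells, 0 to 1 higher and 1 to 2 lower in NK cells, 0 to 1 lower in NKT cells and 3 to 5 higher in macrophages. The members whose effect differed among types numbered 1 to 6. The cause of these changes was not tested. Without the macrophage interferon array there is no macrophage value, and neutrophils have no baseline replicate 3.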
